A study of Mus musculus with 32 samples.

Results

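The cholesterol genes described here are 32 genes of cholesterol synthesis, sensing, transport, esterification and export, chosen by symbol from the 55487 genes of a mouse liver RNA-seq table. All 32 were found in the table, and all 32 were among the 14903 genes that passed the filter on low counts. PolyA RNA of whole liver was measured in 32 libraries, 8 in each of 4 groups. The groups were FAAH S268D mice on the NASH-AA diet, FAAH S268D mice on the NASH diet, WT mice on the NASH-AA diet and WT mice on the NASH diet. FAAH S268D names a substitution in FAAH, the amide hydrolase, an enzyme that breaks down fatty acid amides, and counts per gene cannot check it. The series text states that feeding lasted 28 weeks, on HFFC with ARA or without it, so that every group had been on the HFFC base and no group on chow is analysed here. Strain, sex and whether the substitution was carried on both alleles are not stated in the labels. Nothing states that the 8 libraries of a group came from separate mice, so the p-values measure the spread between these libraries, which may be partly technical.

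Hepatocytes make cholesterol from acetyl-CoA in a long chain of enzymes. Acetyl units are condensed and reduced to mevalonate, mevalonate is phosphorylated and built up to farnesyl pyrophosphate, farnesyl units are joined to squalene, squalene is closed to lanosterol, and lanosterol is trimmed to cholesterol. When sterols in the endoplasmic reticulum are scarce, SCAP escorts the transcription factor SREBP2 to the Golgi, where it is cut and released to switch on the genes of this chain; when sterols are plentiful, INSIG proteins hold SCAP back. Cholesterol that is taken up leaves lysosomes through NPC1 and NPC2, is stored as ester by SOAT enzymes and is secreted into bile by the ABCG5 and ABCG8 pair.

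The proximal promoters were searched for elements through which this regulation is known to run. The promoters of 4 members are printed because they hold the sterol element matches or the most CCAAT boxes among the members. Each is the 250 bases before the RefSeq start on GRCm38.p6, written 5′ to 3′ on the gene's strand. Capitals mark matches, on either strand, to CACNCCAC, the core of the element that SREBP binds, and to CCAAT, the box bound by NF-Y, a factor that acts beside SREBP. Mvk, on chr5:114444019-114444268 of the plus strand, holds 5 CCAAT matches and no CACNCCAC. Hmgcs1, on chr13:119690101-119690350 of the plus strand, holds 3 CCAAT matches and 1 CACNCCAC. Insig1, on chr5:28071162-28071411 of the plus strand, holds 1 of each. Acat2, on chr17:12960726-12960975 of the minus strand, holds 2 CACNCCAC matches.
Mvk: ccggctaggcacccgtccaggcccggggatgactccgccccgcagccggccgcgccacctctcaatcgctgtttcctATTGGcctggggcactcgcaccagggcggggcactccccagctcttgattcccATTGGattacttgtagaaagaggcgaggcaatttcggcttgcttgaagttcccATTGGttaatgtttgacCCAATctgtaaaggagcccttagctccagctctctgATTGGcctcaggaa
Hmgcs1: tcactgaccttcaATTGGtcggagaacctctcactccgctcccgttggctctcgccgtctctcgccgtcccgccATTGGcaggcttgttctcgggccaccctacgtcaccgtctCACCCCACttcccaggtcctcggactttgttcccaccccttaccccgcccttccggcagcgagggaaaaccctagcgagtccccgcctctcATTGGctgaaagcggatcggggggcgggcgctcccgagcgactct
Insig1: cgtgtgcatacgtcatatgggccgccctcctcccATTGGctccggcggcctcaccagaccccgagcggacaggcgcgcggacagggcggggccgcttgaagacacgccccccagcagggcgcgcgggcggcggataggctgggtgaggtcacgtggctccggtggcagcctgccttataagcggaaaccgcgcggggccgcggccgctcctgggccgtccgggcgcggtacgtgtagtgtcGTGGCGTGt
Acat2: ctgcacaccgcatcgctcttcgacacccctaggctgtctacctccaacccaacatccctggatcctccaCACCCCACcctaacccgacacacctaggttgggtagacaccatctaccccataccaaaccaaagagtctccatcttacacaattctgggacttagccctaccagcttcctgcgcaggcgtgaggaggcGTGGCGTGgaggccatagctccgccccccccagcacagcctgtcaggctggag

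A promoter window was given for 26 of the 32 members. At least 1 CCAAT match was found in 23 of these 26 (88.5%), against 40.5% of the 10935 tested genes with a window. CACNCCAC was found in 3 of 26 (11.5%), against 6.69% of tested genes, and its longer form TCACNCCAC, which contains CACNCCAC, in 1 of 26 (3.85%), against 1.33%. The GC box GGGCGG, bound by SP1, was found in 21 of 26 (80.8%), against 60.8%. In the Hmgcs1 window the CACNCCAC match begins 136 bases before the start, in Insig1 9 bases before it, and in Acat2 181 and 53 bases before it. Where the table gives more than 1 start, as for Abcg8, Dhcr7, Insig2, Pmvk and Scap, a match in any of the windows was counted, for members and for all tested genes alike. These are matches of letters and say nothing of binding, or of genes without one.

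Depth ran from 3851626 counts in FAAH S268D NASH replicate 1, the shallowest library, and 14743252 in the next, to 34370178, with a median of 22896702. Over all tested genes the median log2 fold change of each comparison lay between 0.00 and 0.01. The labels number the libraries from 1 to 32, and each group has libraries in both the range 1 to 16 and the range 17 to 32, so effects are also given within each range. None of the 32 members lies on chromosome 4, which carries Faah. Markers of hepatocytes were abundant in every library, with summed levels from 51285 to 98123 CPM over 10 markers. Of 5 markers of fat cells, Lep was at 0 in all libraries and 4, Lep included, had a median of 0 over all 32 libraries. Of these 5, Cfd was present and rose on NASH-AA by 1.99 in WT livers and 1.85 over both genotypes on the log2 scale (adjusted p = 0.0327 and 0.00636). Their sum had medians of 14.7 CPM in FAAH S268D livers on NASH-AA and 3.54 CPM on NASH, and of 30.4 CPM in WT livers on NASH-AA and 5.90 CPM on NASH; its part in the diet results was not tested.

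**Figure D1:**
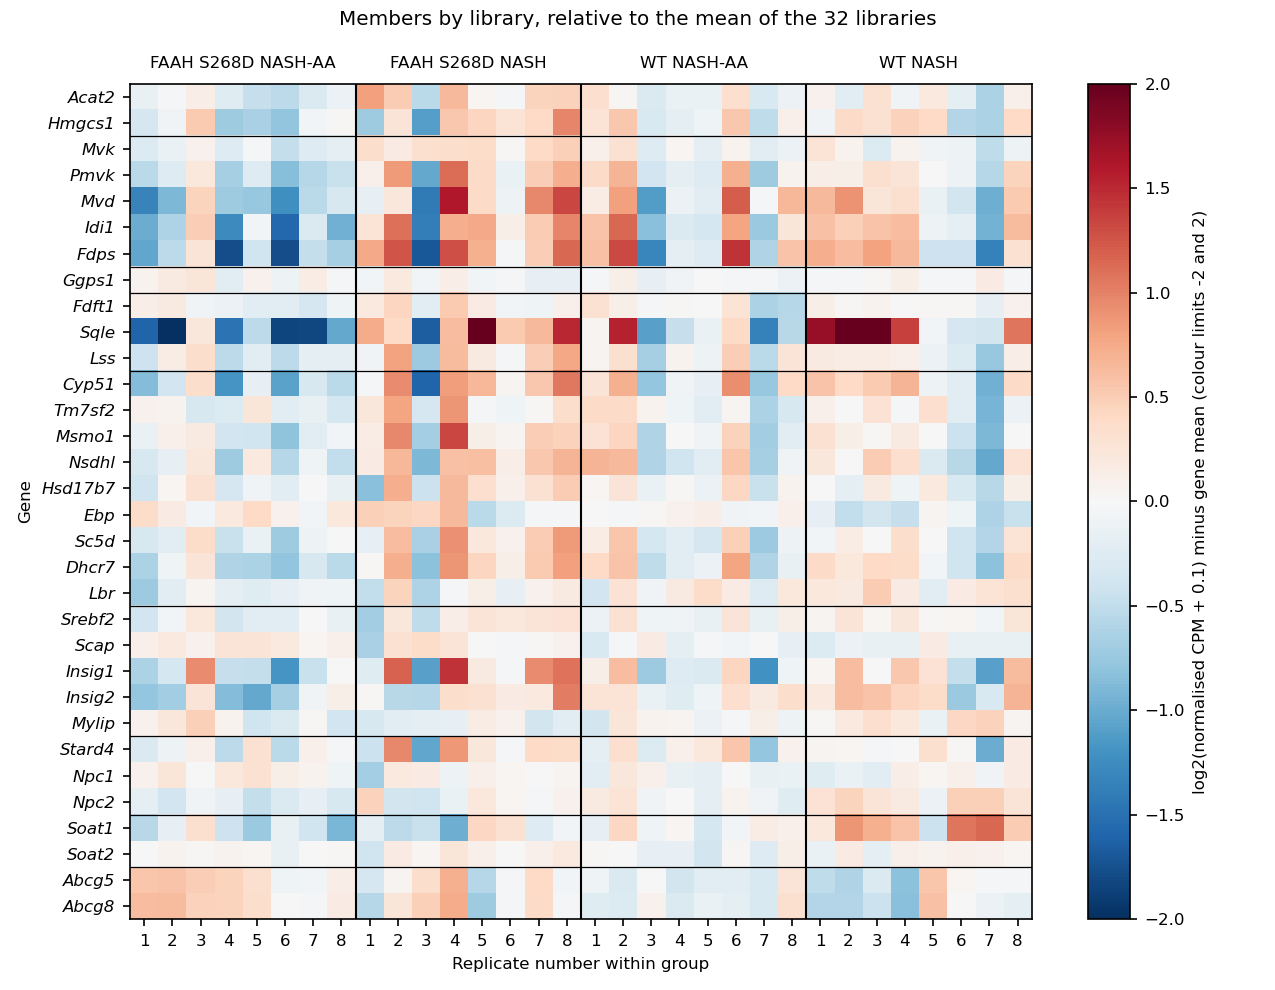
Level of each of the 32 genes (rows, grouped by role) in each of the 32 libraries (columns, grouped by genotype and diet, replicate number below), as log2(normalised CPM + 0.1) minus the gene's mean over libraries. Blue prevails among the synthesis genes of FAAH S268D livers on NASH-AA and in FAAH S268D NASH replicate 3 and WT NASH replicate 7, and red in most other FAAH S268D libraries on NASH.

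Expressed per kilobase of exon, the most abundant members were Sc5d, the desaturase that acts on lathosterol, at 68.2 CPM per kb, Abcg5 at 64.4, Ebp, the sterol isomerase, at 61.3, Abcg8 at 58.7 and Insig1 at 46.4. The least abundant were Soat1 at 0.9997 CPM per kb and Sqle, squalene epoxidase, a rate-controlling step of the chain, at 0.267. Within groups the synthesis enzymes varied more between libraries than most genes did. The median within-group SD on the log2 scale was 0.45 over the 19 synthesis enzymes, against 0.25 over the 13 other members and 0.24 over all tested genes. Sqle had the largest at 1.27, followed by Fdps at 0.86, Mvd at 0.74 and Idi1 at 0.70, and Ggps1, which branches off to geranylgeranyl pyrophosphate, the smallest at 0.11.

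Most of this variation was shared. After subtraction of group means, the median correlation between pairs of synthesis enzymes over the 32 libraries was 0.64, and 159 of 171 pairs were above 0; all pairs share the same libraries, so this is a description without a test. Cyp51 (0.97), Pmvk (0.96), Dhcr7 (0.95), Idi1 (0.95), Fdps (0.94) and Sc5d (0.94) followed the mean of the other synthesis enzymes most closely. Members outside the chain that followed it as well were Insig1 (0.92), Stard4 (0.84) and Srebf2 (0.68). Ebp did not (-0.10), nor did Scap (-0.12), Abcg5 (-0.11) or Abcg8 (-0.14). Abcg5 and Abcg8, which lie head to head on chromosome 17, overlap by 82 exon bases on opposite strands and encode the subunits of 1 transporter, had a correlation of 0.97 with each other.

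Averaged over the 19 synthesis enzymes as log2 level relative to the mean of all libraries, FAAH S268D livers on NASH-AA ran from -0.77 through a median of -0.38 to 0.22, FAAH S268D livers on NASH from -0.80 through 0.42 to 0.79, WT livers on NASH-AA from -0.56 through -0.04 to 0.57, and WT livers on NASH from -0.69 through 0.27 to 0.36. In each FAAH S268D group 1 library went against the others. FAAH S268D NASH replicate 3 was the lowest of its group in 16 of 19 synthesis enzymes, while the other 7 libraries lay between 0.04 and 0.79. FAAH S268D NASH-AA replicate 3 was the highest of its group in 16 of 19 and the only library of that group above 0. In WT on NASH, replicate 7 was the lowest in 18 of 19. The first of these libraries had 22866043 counts, close to the median depth, and results that rest on it are given with and without it.

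**Figure D2:**
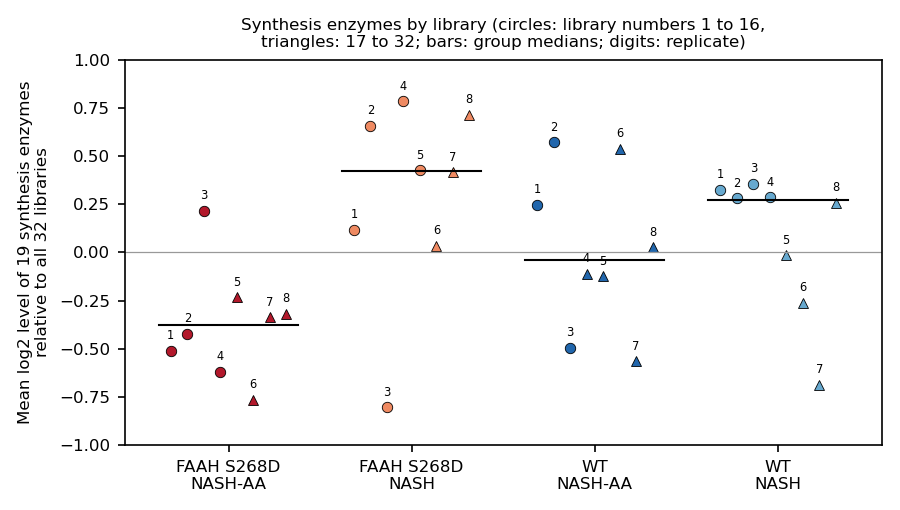
Mean log2 level of the 19 synthesis enzymes relative to all libraries (vertical axis) in each library, by group, with bars at the group medians, circles for library numbers 1 to 16 and triangles for 17 to 32. In FAAH S268D livers on NASH-AA 7 of 8 libraries lie below 0 and in FAAH S268D livers on NASH 7 of 8 lie above 0, with replicate 3 at -0.80.

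In FAAH S268D livers the synthesis enzymes were lower on NASH-AA than on NASH almost throughout, but only Mvk passed the threshold. The log2 fold change was negative for 18 of 19 synthesis enzymes, with a median of -0.49, against 7272 of 14903 negative and a median of 0.00 over all tested genes. Members are not independent of each other, as their shared variation shows. By limma-voom with Benjamini-Hochberg adjustment over all tested genes at an adjusted p under 0.05, 1 of 32 members fell, and 0.0671% of all tested genes fell (0.0939% called in either direction). Without adjustment, 14 of 19 synthesis enzymes had a p under 0.05. The count over all tested genes is not given here, so this one has no background to be set against.

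Mvk, mevalonate kinase, on chr5:114444269-114460591, had a lowest, median and highest level of 6.05, 7.26 and 8.93 CPM in FAAH S268D livers on NASH-AA, against 8.55, 10.8 and 11.8 CPM on NASH. All 8 NASH-AA libraries lay below the NASH median, and the groups overlapped only in their ends. The log2 fold change was -0.48 ± 0.10 (SE; adjusted p = 0.0443). That adjusted p lies close to the threshold: the call was lost on leaving out any one of 16 of the 32 libraries, namely FAAH S268D NASH replicates 1, 4, 5, 7 and 8, FAAH S268D NASH-AA replicates 1, 2, 4, 6, 7 and 8, WT NASH replicates 6 and 8 and WT NASH-AA replicates 4, 6 and 8, with adjusted p up to 0.125 and a log2 fold change between -0.53 and -0.44. Within library numbers 1 to 16 the change was -0.44 (adjusted p = 0.9996) and within 17 to 32 it was -0.52 (adjusted p = 0.0590). The call was also lost with the 2 groups fitted alone (adjusted p = 0.0548) and with no filter on low values.

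**Figure D3:**
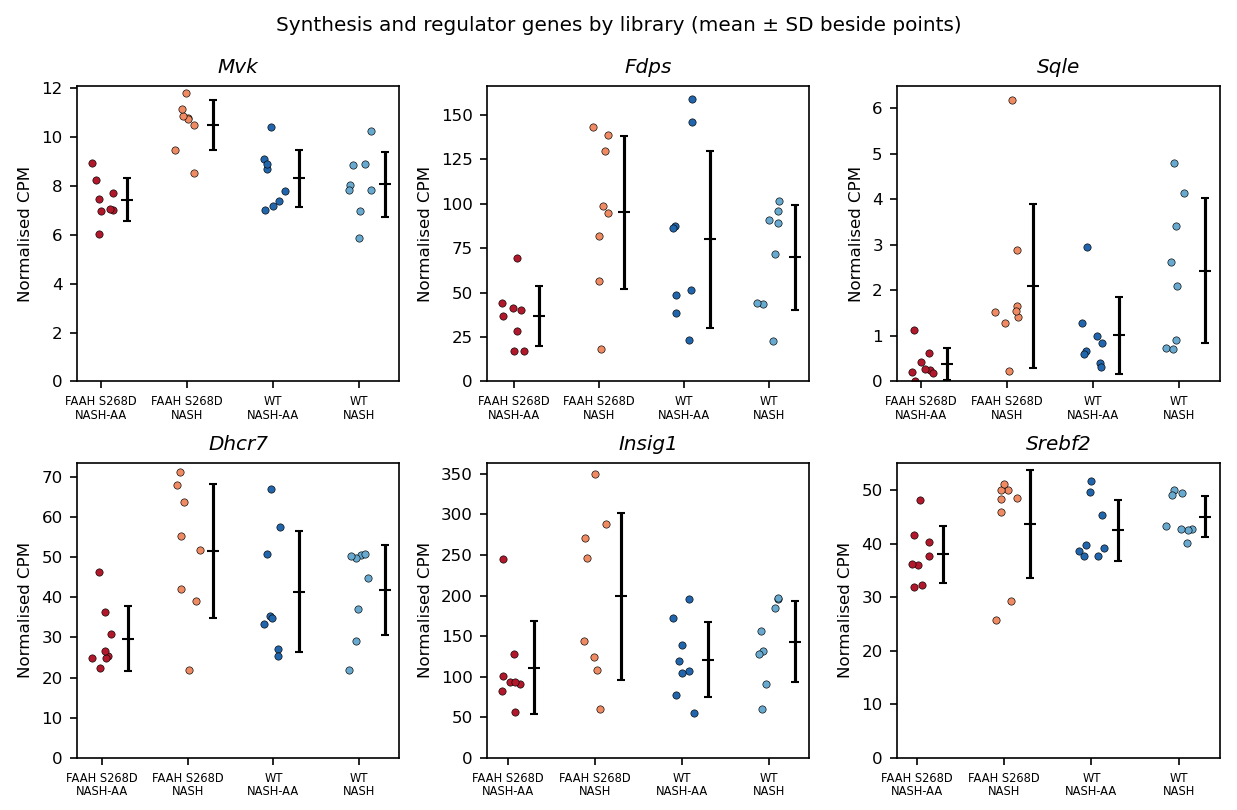
Normalised CPM of 4 synthesis enzymes and 2 regulators in each library, by group, with the mean ± SD (n = 8) beside the points. Levels in FAAH S268D livers on NASH-AA lie mostly below those on NASH, while both WT groups cover similar ranges except for Sqle.

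The other enzymes that build farnesyl pyrophosphate differed by more but were more variable. Fdps, farnesyl diphosphate synthase, had 16.9, 38.6 and 69.3 CPM (lowest, median and highest) in FAAH S268D livers on NASH-AA, against 17.98, 96.6 and 143 CPM on NASH, where the lowest value belongs to replicate 3. All 8 NASH-AA libraries lay below the NASH median, and the groups overlapped. Fdps had a log2 fold change of -1.28 ± 0.41 (SE; adjusted p = 0.191). Idi1, the isopentenyl diphosphate isomerase, had a log2 fold change of -1.01 ± 0.36 (SE; adjusted p = 0.252). Mvd, which decarboxylates diphosphomevalonate, and Pmvk, phosphomevalonate kinase, had log2 fold changes of -1.04 (adjusted p = 0.281) and -0.74 (adjusted p = 0.213). Reads of Fdps could not all be told from Gm43738, which overlaps it on the same strand and shares 24.6% of its 31-base words, and those of Idi1 from the pseudogene Gm13502, which shares 18.4%; the table holds fractional counts for Fdps in 32 of 32 libraries and for Idi1 in 31.

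At the entry to the chain, Acat2, the cytosolic thiolase that joins acetyl units, had 36.7, 46.1 and 58.0 CPM (lowest, median and highest) in FAAH S268D livers on NASH-AA, against 36.2, 72.3 and 92.6 CPM on NASH. All 8 NASH-AA libraries were below the NASH median. Its log2 fold change was -0.48 ± 0.15 (SE; adjusted p = 0.176), and its counts are uncertain because 43.7% of its 31-base words are shared with Acat3. Hmgcs1, the HMG-CoA synthase of the cytosol, had 46.4, 70.1 and 115 CPM on NASH-AA, against 37.5, 102 and 159 CPM on NASH, and a log2 fold change of -0.42 ± 0.24 (SE; adjusted p = 0.490). The ranges of both genes overlapped between the diets.

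Of the steps around squalene, Sqle differed most. Its lowest, median and highest levels were 0, 0.263 and 1.13 CPM in FAAH S268D livers on NASH-AA, against 0.235, 1.54 and 6.18 CPM on NASH. Replicate 2 of the NASH-AA group had 0 counts, and all 8 NASH-AA libraries lay below the NASH median. Sqle had a log2 fold change of -2.41 ± 0.76 (SE; adjusted p = 0.180); it rests on few counts, from 0 to 151 a library over all groups. Lss, lanosterol synthase, had 15.8, 19.7 and 29.2 CPM on NASH-AA, against 13.8, 29.1 and 39.7 CPM on NASH, and a log2 fold change of -0.47 ± 0.20 (SE; adjusted p = 0.316). Fdft1, squalene synthase, had -0.22 (adjusted p = 0.439), and part of its reads may belong to Ctsb on the opposite strand.

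From lanosterol onward, Dhcr7, the reductase that makes cholesterol from its dehydro precursor, had 22.4, 25.99 and 46.3 CPM (lowest, median and highest) in FAAH S268D livers on NASH-AA, against 21.8, 53.5 and 71.0 CPM on NASH. All 8 NASH-AA libraries lay below the NASH median, although the single low NASH library, replicate 3, made the groups overlap. Its log2 fold change was -0.77 ± 0.23 (SE; adjusted p = 0.159). For the remaining enzymes the log2 fold changes were -0.83 (adjusted p = 0.296) for the lanosterol demethylase Cyp51, -0.58 (adjusted p = 0.275) for the methylsterol oxidase Msmo1, -0.55 (adjusted p = 0.355) for the sterol dehydrogenase Nsdhl, -0.49 (adjusted p = 0.299) for Sc5d, -0.35 (adjusted p = 0.345) for the ketosterol reductase Hsd17b7, -0.34 (adjusted p = 0.430) for the sterol reductase Tm7sf2, whose reads could not all be told from those of Vps51 on the same strand, and -0.18 (adjusted p = 0.614) for Lbr, a nuclear membrane protein with the same reductase activity. Ebp alone was not lower, at 0.02 (adjusted p = 0.962).

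FAAH S268D NASH replicate 3 was picked out because most of these same enzymes were lowest in it. Leaving it out therefore raises the NASH mean of these enzymes by choice, and results without it are no separate support. WT NASH replicate 7, the low library of its group, was kept in the WT median over all libraries given below. With FAAH S268D NASH replicate 3 left out, 11 synthesis enzymes fell on NASH-AA and no other member was called, while 1.44% of all tested genes fell in that fit. They were Acat2 (log2 fold change -0.60), Mvk (-0.48), Pmvk (-0.95), Mvd (-1.32), Idi1 (-1.28), Fdps (-1.60), Sqle (-2.79), Lss (-0.63), Cyp51 (-1.13), Msmo1 (-0.75) and Dhcr7 (-0.95), with adjusted p between 0.0133 and 0.0493. With replicate 1, the shallowest library, left out as well, 15 members fell, 13 of them synthesis enzymes and the other two Srebf2 and Insig1, while 1.45% of all tested genes fell. The median of the 19 synthesis enzymes was -0.63 without replicate 3 and -0.75 without both. Within library numbers 1 to 16 the median was -0.44 with 0 members called, and within 17 to 32, which hold neither replicate, it was -0.69 with 2 lower, Sqle and Srebf2, where 1.68% of all tested genes fell.

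In WT livers the same diet comparison showed no common direction. The log2 fold change of the synthesis enzymes was negative for 9 and positive for 10 of 19, with a median of 0.01, and 0 of 32 members passed, while 4.41% of all tested genes were called. Without adjustment 4 members had a p under 0.05, a count given here without that over all tested genes, and limma-trend also called 0. Mvk had 7.02, 8.26 and 10.4 CPM (lowest, median and highest) in WT livers on NASH-AA, against 5.88, 7.94 and 10.3 CPM on NASH, a log2 fold change of 0.04 ± 0.10 (SE; adjusted p = 0.842). For Fdps the levels were 23.4, 68.8 and 159 CPM on NASH-AA, against 22.7, 80.6 and 101 CPM on NASH, and the log2 fold change had a 95% interval from -0.74 to 0.91. The interval for Dhcr7 ran from -0.49 to 0.42. The changes measured for both genes in FAAH S268D livers lie outside these intervals, but they have errors of their own. The difference between the genotypes is tested below as the interaction, where neither gene passed. Sqle was the exception in size, with 0.312, 0.760 and 2.96 CPM in WT livers on NASH-AA, against 0.712, 2.36 and 4.79 CPM on NASH, and a log2 fold change of -1.29 ± 0.55 (SE; adjusted p = 0.146). Ebp was higher in all 8 WT NASH-AA libraries than the WT NASH median, with a log2 fold change of 0.35 ± 0.12 (SE; adjusted p = 0.0853). It passed with the 2 WT groups fitted alone (adjusted p = 0.0258), where 1092 of 14379 genes were called. With sample quality weights 5 members passed, Npc2, Sqle, Soat1 and Soat2 lower and Ebp higher, where 3759 of 14903 genes were called. The median of the synthesis enzymes was -0.11 within library numbers 1 to 16 and 0.11 within 17 to 32.

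Whether the diet acted differently in the genotypes was tested as the interaction, the diet effect in FAAH S268D livers minus that in WT livers. All 19 synthesis enzymes had a negative interaction, with a median of -0.52, against a median of 0.01 over all tested genes, but 0 of 32 members and 0.0% of all tested genes passed by limma-voom. Without adjustment, 6 members and 627 of 14903 genes had a p under 0.05, and limma-trend also called 0. The largest were Fdps at -1.36 ± 0.58 (SE; adjusted p = 0.906) and Mvd at -1.08 ± 0.53 (SE; adjusted p = 0.906). Mvk had the smallest unadjusted p of the members, with -0.52 ± 0.14 (SE; adjusted p = 0.906). Within library numbers 1 to 16 the median was -0.35 with 17 of 19 negative, and within 17 to 32 it was -0.90 with 19 of 19 negative. Without FAAH S268D NASH replicate 3, a library picked out by its low level of these same enzymes, the median was -0.67.

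**Figure D4:**
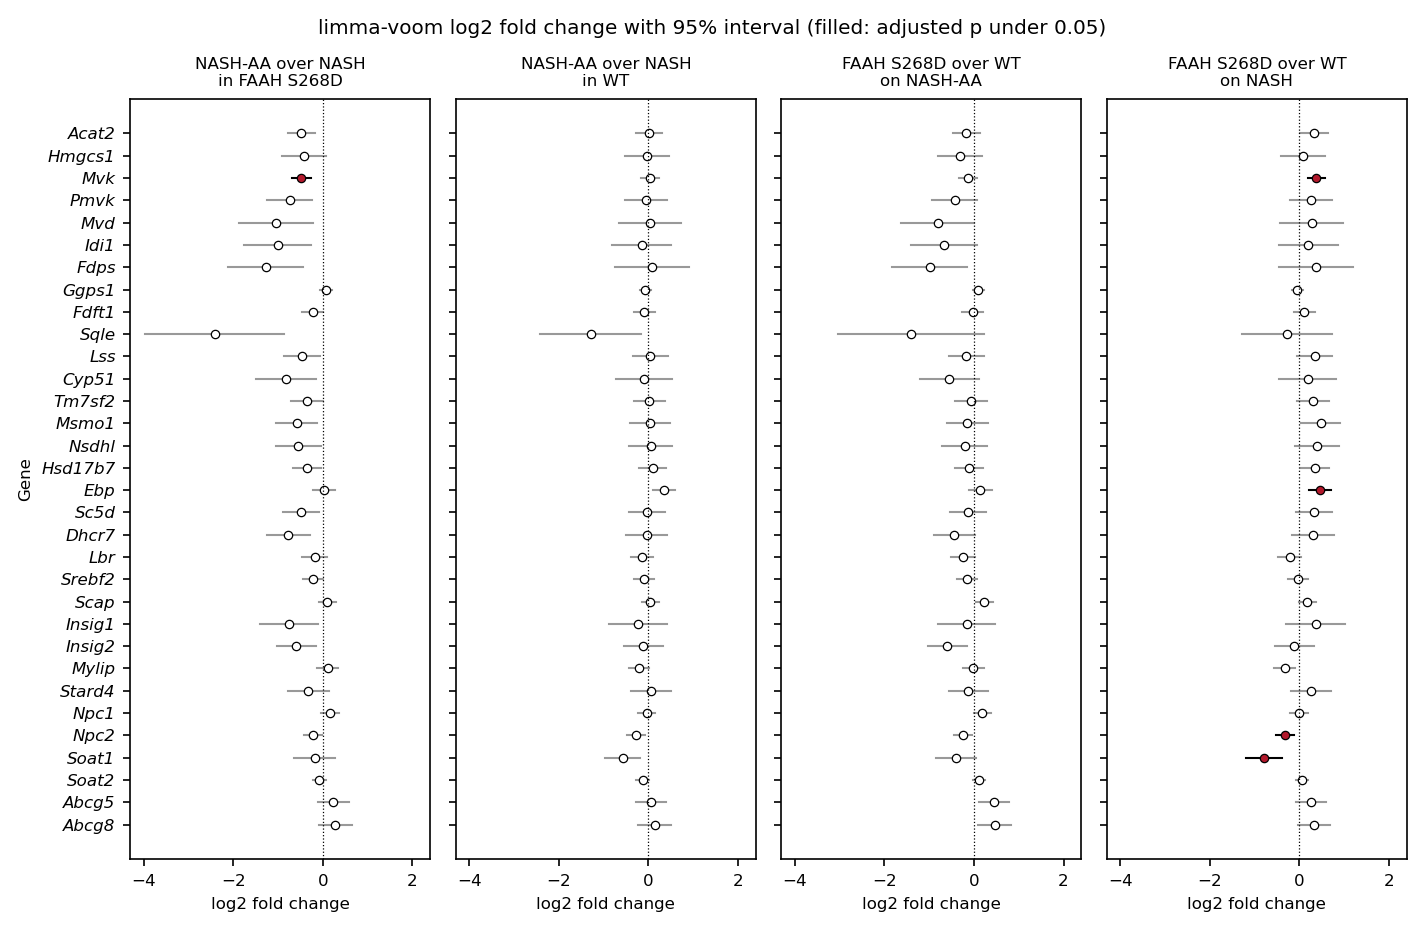
Log2 fold change of each of the 32 genes with its 95% interval in 4 comparisons of 2 groups; filled points have an adjusted p under 0.05. Points for the synthesis enzymes lie to the left of 0 for diet in FAAH S268D livers and near 0 in WT livers, with Mvk the only filled point for diet and Mvk, Ebp, Npc2 and Soat1 filled for genotype on NASH.

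Averaged over both genotypes, Mvk, Sqle and Npc2 fell on NASH-AA, 3 of 32 members, where 6.27% of all tested genes fell and 10.9% were called in either direction. Sqle had a log2 fold change of -1.85 ± 0.47 (SE; adjusted p = 0.0130), which kept its call on leaving out any single library (adjusted p up to 0.0231). For Mvk it was -0.22 ± 0.07 (SE; adjusted p = 0.0396), and 15 of 32 omissions of a single library ended the call, with adjusted p up to 0.0674. These were FAAH S268D NASH replicates 5, 7 and 8, FAAH S268D NASH-AA replicates 1, 4, 6, 7 and 8, WT NASH replicates 1, 2 and 4 and WT NASH-AA replicates 3, 5, 7 and 8. Npc2, a soluble lysosomal protein that hands cholesterol to NPC1, had -0.25 ± 0.07 (SE; adjusted p = 0.0203). Within library numbers 1 to 16 the changes were -2.15 for Sqle, -0.22 for Mvk and -0.14 for Npc2, with none called. Within 17 to 32 they were -1.50, -0.21 and -0.36, with Sqle (adjusted p = 0.0115) and Npc2 (adjusted p = 0.0155) called. In that range 4 of 32 members were called, among them 1 synthesis enzyme that was higher on NASH-AA, where 1965 of 14308 genes were called. In the fit of all libraries, averaged over both genotypes, 5 of 10 macrophage markers fell, with a median log2 fold change of -0.52. In that fit 4 of 10 hepatocyte markers rose, with a median of 0.21. The part of these markers in the diet results was not tested. FAAH S268D NASH replicate 3 was picked out by its low level of the synthesis enzymes. Without it 11 members fell on average over both genotypes, where 9.0% of all tested genes fell.

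The second axis of the design is genotype, FAAH S268D over WT on the same diet. On NASH, Mvk and Ebp rose and Npc2 and Soat1 fell in FAAH S268D livers, 4 of 32 members against 9.18% of all tested genes called. In this comparison 2.89% of tested genes rose and 6.29% fell. Of the synthesis enzymes 17 of 19 were positive, with a median of 0.30, against a median of 0.00 over all tested genes. With these 2 groups fitted alone none of the 4 passed (adjusted p from 0.0781 to 0.153). The NASH libraries of FAAH S268D mice are also those of the diet comparison above, so the values are not separate evidence.

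Mvk had 8.55, 10.8 and 11.8 CPM (lowest, median and highest) in FAAH S268D livers on NASH, against 5.88, 7.94 and 10.3 CPM in WT livers on NASH. All 8 FAAH S268D libraries were above the WT median. Its log2 fold change was 0.38 ± 0.10 (SE; adjusted p = 0.0133); within library numbers 1 to 16 it was 0.26 (adjusted p = 0.209) and within 17 to 32 it was 0.49 (adjusted p = 0.488). Ebp, on chrX:8185329-8193512, had 95.1, 159.9 and 216 CPM in FAAH S268D livers on NASH, against 90.3, 105 and 143 CPM in WT livers on NASH, with 7 of 8 FAAH S268D libraries above the WT median and overlapping ranges. Its log2 fold change was 0.46 ± 0.12 (SE; adjusted p = 0.0173), and without FAAH S268D NASH replicate 4 the adjusted p was 0.0625. Within library numbers 1 to 16 it was 0.67 (adjusted p = 0.0411) and within 17 to 32 it was 0.15 (adjusted p = 0.779). The difference in the synthesis enzymes as a list was not even between these ranges: the median was 0.06 with 10 of 19 positive in 1 to 16 and 0.66 with 17 of 19 positive in 17 to 32.

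Over the same 2 groups the hepatocyte markers moved as well. Summed over 10 markers they ran from 57933 through a median of 71975 to 98123 CPM in FAAH S268D livers on NASH, against 51285, 59142 and 76282 CPM in WT livers on NASH, and 5 of 10 rose, with a median log2 fold change of 0.29. Their part in the Mvk and Ebp results was not tested. In bulk RNA, a smaller share of cells of a type and less RNA of a gene per cell cannot be told apart.

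Soat1, the sterol acyltransferase of many tissues and of macrophages, on chr1:156424525-156474331, had 4.60, 7.80 and 12.2 CPM (lowest, median and highest) in FAAH S268D livers on NASH, against 6.75, 14.3 and 20.4 CPM in WT livers on NASH. All 8 FAAH S268D libraries lay below the WT median, and the ranges overlapped. Its log2 fold change was -0.79 ± 0.20 (SE; adjusted p = 0.0138); without FAAH S268D NASH replicate 4 the adjusted p was 0.0572. Npc2, on chr12:84754562-84773152, had 50.7, 67.2 and 92.6 CPM in FAAH S268D livers on NASH, against 61.6, 80.9 and 93.7 CPM in WT livers on NASH, with 7 of 8 libraries below the WT median. Its log2 fold change was -0.32 ± 0.10 (SE; adjusted p = 0.0390), and the call was lost on leaving out any of FAAH S268D NASH replicates 2, 3, 4 and 7 or WT NASH replicates 2, 3, 4, 6, 7 and 8, with adjusted p up to 0.115. The changes within library numbers 1 to 16 were -0.94 for Soat1 (adjusted p = 0.0369) and -0.36 for Npc2 (adjusted p = 0.141), and within 17 to 32 they were -0.59 and -0.25 (adjusted p = 0.607 for both).

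Macrophage markers were lower in the same samples. The sum of 10 markers ran from 338 through 534 to 679 CPM in FAAH S268D livers on NASH, against 476, 937 and 1305 CPM in WT livers on NASH. In FAAH S268D livers on NASH-AA it ran from 324 through 495 to 566 CPM, against 525, 634 and 727 CPM in WT livers on NASH-AA. On NASH 9 of 10 fell, with a median log2 fold change of -1.03, and over both diets 9 of 10 fell. Their part in the Soat1 and Npc2 results was not tested.

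Over both diets together, 6 of 32 members differed by genotype, against 17.2% of all tested genes called. Ebp, Scap, Abcg5 and Abcg8 rose in FAAH S268D livers, where 6.9% of tested genes rose, and Npc2 and Soat1 fell, where 10.3% fell. The log2 fold changes were -0.29 ± 0.07 (SE; adjusted p = 0.00567) for Npc2 and -0.59 ± 0.15 (SE; adjusted p = 0.00630) for Soat1, and both calls held without any single library. The effect on Npc2 was close in both ranges, at -0.35 in library numbers 1 to 16 and -0.24 in 17 to 32, and so was that on Soat1, at -0.58 and -0.59, though neither passed within a range alone (adjusted p from 0.0719 to 0.249). Ebp had 0.30 ± 0.09 (SE; adjusted p = 0.0172), with 0.42 in library numbers 1 to 16 and 0.13 in 17 to 32 (adjusted p = 0.0756 and 0.506).

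**Figure D5:**
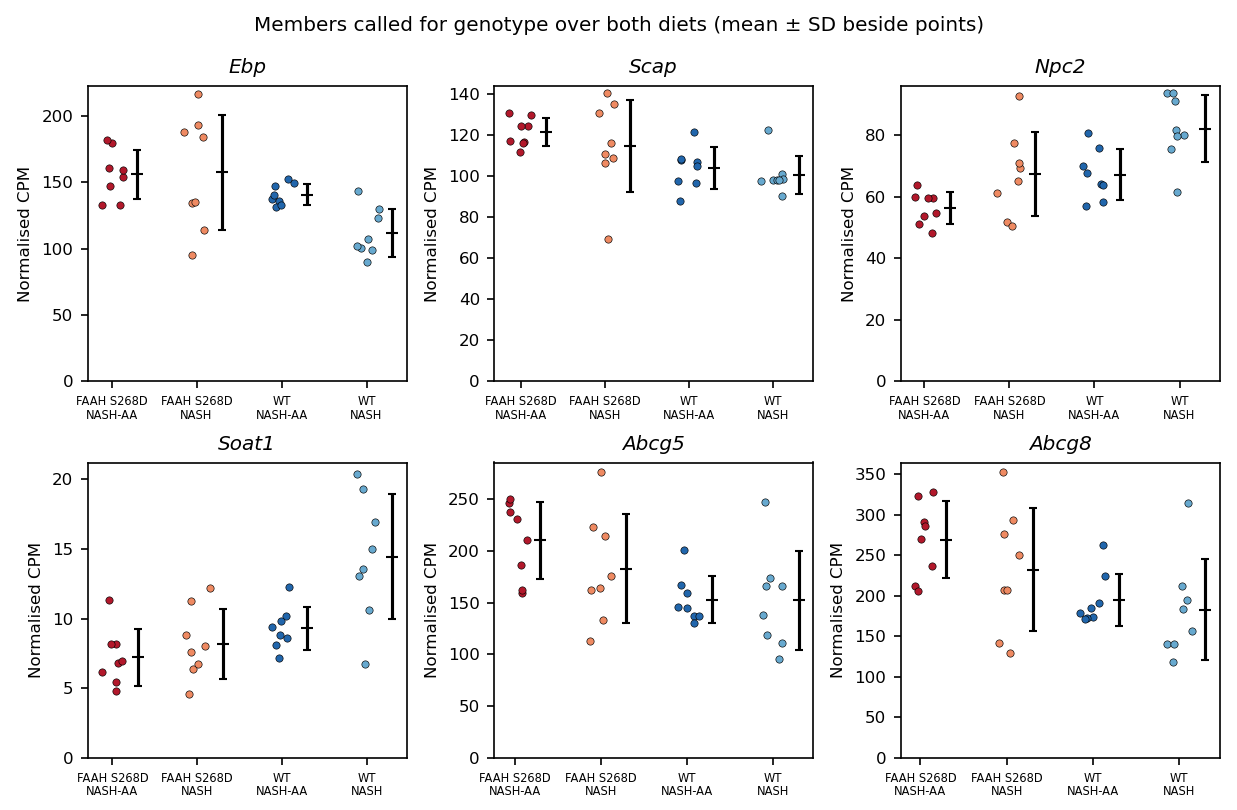
Normalised CPM of the 6 genes that differed by genotype over both diets, in each library by group, with the mean ± SD (n = 8) beside the points. Ebp, Scap, Abcg5 and Abcg8 lie higher and Npc2 and Soat1 lower in FAAH S268D livers, with ranges that overlap on each diet.

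Scap, the sterol sensor that escorts SREBP2, on chr9:110333288-110384950, had 112, 121 and 131 CPM (lowest, median and highest) in FAAH S268D livers on NASH-AA, against 87.7, 106 and 122 CPM in WT livers on NASH-AA. On NASH it had 69.1, 113 and 140.2 CPM in FAAH S268D livers, against 90.2, 98.1 and 122 CPM in WT livers, where the lowest FAAH S268D value belongs to the shallowest library. All 8 FAAH S268D libraries on NASH-AA and 7 of 8 on NASH were above the WT median of their diet. The log2 fold change over both diets was 0.20 ± 0.06 (SE; adjusted p = 0.0298), at 0.23 within library numbers 1 to 16 and 0.16 within 17 to 32 (adjusted p = 0.292 and 0.211). Exons of Scap overlap 5830462I19Rik on the opposite strand by 985 bases, and part of its reads may belong to that gene.

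Abcg5 and Abcg8, on chr17:84658234-84683011 and chr17:84676302-84700333, were higher in FAAH S268D livers on both diets, though on neither diet did they pass in the fit of all groups. Abcg5 had 159, 220.4 and 249.95 CPM (lowest, median and highest) in FAAH S268D livers on NASH-AA, against 130.2, 145 and 201 CPM in WT livers on NASH-AA, and on NASH 113, 169.9 and 276 CPM in FAAH S268D livers, against 95.5, 152 and 247 CPM in WT livers. Abcg8 had 206, 278 and 329 CPM in FAAH S268D livers on NASH-AA, against 171, 182 and 263 CPM in WT livers on NASH-AA, and on NASH 129, 229 and 353 CPM in FAAH S268D livers, against 119, 170.0 and 315 CPM in WT livers. On NASH-AA all 8 FAAH S268D libraries lay above the WT median for both genes, and on NASH 6 of 8 did.

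The log2 fold change over both diets was 0.36 ± 0.12 (SE; adjusted p = 0.0312) for Abcg5 and 0.39 ± 0.13 (SE; adjusted p = 0.0319) for Abcg8. Both calls were lost without any one of FAAH S268D NASH replicates 3 and 4, FAAH S268D NASH-AA replicate 2 and WT NASH replicates 2 and 4, and that of Abcg8 also without FAAH S268D NASH-AA replicate 1, with adjusted p up to 0.0569 and 0.0571. The changes within library numbers 1 to 16 were 0.62 and 0.66 (adjusted p = 0.0309 and 0.0461), against 0.10 and 0.14 within 17 to 32 (adjusted p = 0.691 and 0.606). Because their exons overlap on opposite strands and the use of strand is not given, reads of that stretch cannot be told apart. Hepatocyte markers rose over both diets in 5 of 10, with a median log2 fold change of 0.24, and their part in the results for Ebp, Scap, Abcg5 and Abcg8 was not tested.

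On NASH-AA alone, 0 of 32 members differed between FAAH S268D and WT livers by limma-voom, while 0.658% of all tested genes were called. Without adjustment 6 members had a p under 0.05, a count given here without that over all tested genes, and limma-trend also called 0. With the 2 NASH-AA groups fitted alone, Abcg8 (adjusted p = 0.0278), Abcg5 (adjusted p = 0.0290) and Scap (adjusted p = 0.0347) passed, where 627 of 14104 genes were called. With sample quality weights these 3 and Npc2 did, where 756 of 14903 genes were called. The synthesis enzymes were negative in 18 of 19, with a median of -0.20, against 7357 of 14903 negative and a median of 0.00 over all tested genes; within library numbers 1 to 16 the median was -0.33, and within 17 to 32 it was -0.27. Fdps had -0.99 ± 0.41 (SE; adjusted p = 0.238). Insig2, which like INSIG1 retains SCAP, had 64.0, 81.7 and 156 CPM (lowest, median and highest) in FAAH S268D livers on NASH-AA, against 111, 153 and 167 CPM in WT livers on NASH-AA, and a log2 fold change of -0.59 ± 0.21 (SE; adjusted p = 0.186). Npc1, the lysosomal cholesterol exporter, had 162, 185 and 212 CPM in FAAH S268D livers on NASH-AA, against 146, 156 and 200.5 CPM in WT livers, with all 8 FAAH S268D libraries above the WT median and a log2 fold change of 0.19 ± 0.10 (SE; adjusted p = 0.345).

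The regulators did not pass for diet. Insig1, a direct target of SREBP2 as well as its brake, had 56.5, 93.6 and 245 CPM (lowest, median and highest) in FAAH S268D livers on NASH-AA, against 59.99, 196 and 349 CPM on NASH, and a log2 fold change of -0.76 ± 0.32 (SE; adjusted p = 0.316). In WT livers Insig1 had 55.0, 113 and 195 CPM on NASH-AA, against 60.3, 144 and 197 CPM on NASH, and a log2 fold change of -0.24 ± 0.32 (SE; adjusted p = 0.681). Srebf2, which encodes SREBP2, had 31.8, 36.9 and 48.1 CPM in FAAH S268D livers on NASH-AA, against 25.7, 48.5 and 51.2 CPM on NASH, with all 8 NASH-AA libraries below the NASH median and a log2 fold change of -0.22 ± 0.11 (SE; adjusted p = 0.433). Mylip, a ubiquitin ligase that removes lipoprotein receptors, was below the WT median in all 8 FAAH S268D libraries on NASH, with 13.7, 15.4 and 19.7 CPM, against 16.1, 20.4 and 24.3 CPM in WT livers; its log2 fold change of -0.33 ± 0.11 (SE; adjusted p = 0.0576) missed the threshold, and 5 of 32 omissions of a single library brought it past (adjusted p from 0.0189).

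Stard4, a sterol carrier of the cytosol, Soat2, the acyltransferase of hepatocytes, and Ggps1 passed in no comparison. Stard4 had log2 fold changes of -0.32 (adjusted p = 0.574) for diet in FAAH S268D livers and 0.26 (adjusted p = 0.491) for genotype on NASH. Soat2 varied little, with group medians of 41.7 CPM in FAAH S268D livers on NASH-AA, 43.9 on NASH, 38.7 in WT livers on NASH-AA and 43.1 on NASH, and an average diet effect of -0.10 ± 0.05 (SE; adjusted p = 0.152). Ggps1 stayed between 6.45 and 8.82 CPM in all libraries, and its interaction of 0.15 ± 0.09 (SE; adjusted p = 0.906) was positive, where those of the 19 synthesis enzymes were negative.

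Across groups, the mean level was highest in FAAH S268D livers on NASH for 17 of 19 synthesis enzymes and lowest in FAAH S268D livers on NASH-AA for 18 of 19. The exceptions were Sqle and Lbr, highest in WT livers on NASH, and Ebp, lowest there. For Abcg5, Abcg8 and Scap the order was another, with both FAAH S268D groups above both WT groups. Neighbours in these orders overlapped in their ranges for every member.

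Other genes around cholesterol were counted on lists that do not overlap the 32. Of 11 tested genes of the sterol pathway outside the members, 7 were negative for diet in FAAH S268D livers with a median of -0.23 and 0 called, and 2 fell on NASH-AA over both genotypes, where 6.27% of all tested genes fell, among them Cyb5r3, an electron donor to sterol enzymes, at -0.29 ± 0.09 (SE; adjusted p = 0.0355). On the list of fatty acid synthesis genes driven by SREBP1, all 11 were negative for diet in FAAH S268D livers. Their median was -0.49, with 0 called. Before adjustment 4 had a p under 0.05, a count given here without that over all tested genes. In WT livers 7 of 11 were positive, with a median of 0.22. Of the 11, 2 fell on NASH-AA over both genotypes, against the same 6.27%, the desaturases Fads2 at -0.87 ± 0.21 (adjusted p = 0.0113) and Fads1 at -0.95 ± 0.28 (adjusted p = 0.0271).

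Some of the 11 genes listed around LXR, such as Nr0b2, belong to bile acid sensing. Among the 11, Pltp, a phospholipid transfer protein, fell by 0.61 and Abcg1, a sterol exporter of macrophages, by 0.62 on the log2 scale in WT livers on NASH-AA over NASH (adjusted p = 0.0277 and 0.0382), 2 of 11 where 4.41% of all tested genes were called. In that comparison 2 of 10 macrophage markers, Itgam and Cd14, fell by 0.97 and 0.91, and the marker sum had a median of 634 CPM in WT livers on NASH-AA, against 937 CPM on NASH; their part in the Pltp and Abcg1 results was not tested. Abcg1 also fell by 0.69 in FAAH S268D over WT livers on NASH (adjusted p = 0.0136), and Nr0b2, a bile acid responsive repressor, rose by 0.60 over both diets (adjusted p = 0.0207). Of 8 bile acid and oxysterol enzymes, Hsd3b7 and Amacr rose in FAAH S268D livers on NASH by 0.32 each (adjusted p = 0.0325 and 0.0445), where 2.89% of all tested genes rose. Cyp7b1 and Akr1d1 rose on NASH-AA over both genotypes by 0.67 and 0.46 (adjusted p = 0.0387 and 0.0341), where 4.62% rose.

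Of 16 transport genes, Gramd1a, a carrier of plasma membrane cholesterol, fell by 0.32 in WT livers on NASH-AA over NASH (adjusted p = 0.0175), where 2.97% of all tested genes fell. In the diet comparison over both genotypes Lipa, the lysosomal lipase, fell by 0.36 and Scarb2 rose by 0.20 (adjusted p = 0.0159 and 0.0133), where 6.27% fell and 4.62% rose. Over both diets 4 of the 16 rose in FAAH S268D livers and 0 fell, where 6.9% of all tested genes rose, with Osbpl2, of the oxysterol-binding family, at 0.14 (adjusted p = 0.00907). Of 13 genes of sterol sensing and degradation, Rnf145, a ubiquitin ligase, fell by 0.54 in WT livers on NASH-AA over NASH (adjusted p = 0.0345), where 2.97% of all tested genes fell. Of 12 isoprenoid enzymes, Dhdds rose in FAAH S268D livers on NASH by 0.27 (adjusted p = 0.0110), where 2.89% rose. Dhdds and Nr0b2 lie on chromosome 4 at 18.002 and 17.59 Mb from Faah. The 4 transport genes that rose over both diets include a gene of chromosome 4 at -6.906 Mb, before Faah in position. The part that linked sequence around the substitution plays in these differences was not tested.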

How the data were processed

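Per the labels' protocols, whole-liver RNA was extracted with TRIzol, and polyA libraries were prepared with a Tecan mRNA-seq kit. The submitters' processing notes name STAR 2.7.10, UMI-tools 1.1.2, Trim Galore 0.6.7 and the build GRCm38. How reads were counted, on which gene models and whether by strand is stated in none of the sources used. The authors deposited 1 gene table, whose values are estimated counts without scaling for depth, and in which many values had been altered as text by a spreadsheet; its unit was therefore recorded as other, and no column belonged to other samples (0). Of 1775584 cells 87.9% held whole numbers and in 11.4% marks that group digits stood in the value; these were turned back by fixed rules, as were clock times and day fractions. In the 1024 cells of the 32 members 37.2% were not whole, and 3 had 2 possible originals, of which the one closer to the gene's depth-scaled median was taken. Values were then rounded.

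Because of this unit the count test named in the design was not run, and limma-voom was used (limma 3.58.1, R 4.3.3), with TMM factors from own code (trims of 0.3 for log ratios and 0.05 for levels) and a prior count of 0.5. A gene was tested if 8 libraries reached the CPM that equals 10 counts at median depth and its total was 15 or more counts. There was 1 mean per group over all 32 libraries and 7 contrasts. Normalised CPM divides by the TMM-scaled library size, and levels per kb divide it by the summed exon length of GENCODE vM21, on GRCm38. A gene was called at a Benjamini-Hochberg adjusted p under 0.05 over all 14903 genes tested. The fit was tested on simulated data. Counting error is largest in the shallowest library (3851626 counts, against a median of 22896702) and for genes of few counts such as Sqle.

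The members, the lists, the markers and the tests were chosen with earlier results of these data known. Full values are given for every member called in any contrast and for the 2 members of each role with the smallest unadjusted p; from other lists only called genes are named, at most 4 a list, and not every called gene of these lists is reported here. A few further members are given with values to complete a role. Same-numbered replicates of different groups did not deviate together, so the numbers were not used as pairs. Alternatives were another normalization, other filters, a replicate block, a term for the library number range and each range alone, 2 groups alone, limma-trend, sample quality weights, the other reading of ambiguous cells, and leaving out each library or both replicates 1 and 3 of FAAH S268D on NASH.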

Additional observations from a re-analysis of the deposited data

Results flagged for a closer look

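For each member in each group of 8, and for the synthesis average, the gap between the end library and its neighbour was divided by the range of the group and compared with Dixon's critical value. Chance puts about 1 in 20 independent groups of normally distributed values past it, and 13 of 132 were past it. Members share libraries and CPM need not be normally distributed, so 1 in 20 is only a rough guide here. In FAAH S268D livers on NASH-AA, replicate 3 stood above the others for Pmvk (16.6 CPM), Mvd (5.505 CPM) and Insig1 (245 CPM), replicate 6 below them for Soat2 (36.9 CPM) and replicate 1 below them for Lbr (3.96 CPM). In FAAH S268D livers on NASH, replicate 3 stood below the others for the average of the synthesis enzymes (-0.80 on the log2 scale), replicate 5 above them for Sqle (6.18 CPM) and replicate 8 above them for Insig2 (267 CPM). Replicate 1 of that group, the shallowest library, stood below the others for Npc1 (107 CPM) and Soat2 (30.97 CPM). In WT livers on NASH-AA, replicate 2 was high for Sqle (2.96 CPM). In WT livers on NASH, replicate 5 was high for Scap (122 CPM) and replicate 7 low for Stard4 (20.5 CPM). The part of depth or RNA quality in these values was not tested.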

How the results depend on the processing

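None of 23 log2 fold changes of members changed sign where recomputed (12 of them with 2 groups alone and 22 with the stricter filter), whereas the median of the synthesis enzymes for diet in WT livers did (0.01 over all libraries, -0.11 in library numbers 1 to 16). With another normalization or the other reading of ambiguous cells the counts of called members were those reported. For diet in FAAH S268D livers (1 member called), the count was 0 with no filter on low values, 0 in library numbers 1 to 16, 2 in 17 to 32, 0 with the 2 groups fitted alone, 13 with sample quality weights and 15 without replicates 1 and 3 of FAAH S268D on NASH; leaving out single libraries gave 0 to 11. For diet in WT livers (0), it was 1 with 2 groups alone, 5 with quality weights and 1 without those replicates, and 0 to 3 on leaving out single libraries (1 without FAAH S268D NASH replicate 5 or WT NASH-AA replicate 2, 3 without WT NASH replicate 5). For diet over both genotypes (3), it was 0 in library numbers 1 to 16, 17 with quality weights and 13 without those replicates, and 2 to 11 on leaving out single libraries. For genotype on NASH (4), it was 2 in library numbers 1 to 16, 0 in 17 to 32, 0 with 2 groups alone and 7 with quality weights, and 1 (without FAAH S268D NASH replicate 4) to 5 on leaving out single libraries. For genotype on NASH-AA (0), it was 3 with 2 groups alone and 4 with quality weights. For genotype over both diets (6), it was 2 in library numbers 1 to 16 and 0 in 17 to 32, and 4 to 7 on leaving out single libraries. With sample quality weights 3759 of 14903 tested genes were called for diet in WT livers, 1062 in FAAH S268D livers and 5086 over both genotypes. For genotype such calls numbered 1967 on NASH and 756 on NASH-AA. Fits within a range hold fewer samples; the cause of the other changes was not tested. The interaction called 0 members in every fit run.

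Same-numbered replicates shared no stated source: of 48 pairs of libraries with the same number, 13 had a correlation of their deviations over 0.1 (range -0.38 to 0.33). With the replicate number as a block, 0 members were called for diet in WT livers, 0 in FAAH S268D livers, 2 over both genotypes, 3 for genotype on NASH, 0 on NASH-AA and 4 over both diets.

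Counts over all genes moved more. For diet in WT livers the 657 calls became 182 with no filter, 17 with the block, 461 with the range term, 0 and 167 within the ranges, 1092 with 2 groups alone, 247 with limma-trend and 3759 with quality weights, and 64 to 2190 on leaving out single libraries. For diet in FAAH S268D livers the 14 calls ranged from 0 (library numbers 1 to 16) to 1062 (quality weights), for genotype on NASH the 1368 from 15 (17 to 32) to 1967 (quality weights), and for genotype on NASH-AA the 98 from 17 (1 to 16) to 756 (quality weights). Over both genotypes the 1624 diet calls ranged from 13 to 5086, and over both diets the 2559 genotype calls from 52 to 3528. Leaving out single libraries gave 6 to 366 for diet in FAAH S268D livers, 494 to 2643 for genotype on NASH and 66 to 186 on NASH-AA. Low counts limit Sqle most, since FAAH S268D NASH-AA replicate 2, with 19250143 counts in all, had 0 counts of it.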
